A study of Mus musculus with 7 samples.

Results

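The genes described here encode 9 enzymes that make serine and pass its one-carbon unit through the folate cycle: Phgdh, Psat1 and Psph, which build serine, Shmt1 and Shmt2, which load its carbon onto folate, Mthfd1, Mthfd2 and Mthfd1l, which interconvert the loaded folates, and Mtr, which hands the carbon on to methionine. They are the rows of the count table whose gene name equals one of these symbols. All 9 were found among the 38293 genes listed, and all 9 were among the 14869 genes that passed the filter on low counts. RNA had been sequenced from the ileum of 7 individually housed male C57BL/6NRJ mice of 8 weeks old. The normal cys group held 4 mice (libraries X17SI4, X32SI4, SI9 and X1SI4) and the low cys group 3 mice (libraries X23SI4, X26SI4 and X10SI4). Both groups ate a purified high fat, low calcium AIN93G diet and were acclimatized to the control version for 1 week before 2 weeks of intervention. The diets differed in the added L-cystine, which alanine replaced in the low cystine diet, so that total cystine was 0.38% in one and 0.08% in the other.

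Cells make serine from the glycolytic intermediate 3-phosphoglycerate in successive steps, and serine hydroxymethyltransferases then split serine into glycine and a one-carbon unit bound to tetrahydrofolate. That unit feeds purine and thymidylate synthesis and, through methionine synthase, the remethylation of homocysteine. Homocysteine is also the entry to transsulfuration, in which its sulfur is joined to the carbon skeleton of serine to make cysteine. Serine is thus a precursor of the amino acid whose oxidised form, cystine, was reduced in the low cystine diet. In the small intestine dividing cells sit in the crypts, and demand for nucleotides is high there.

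Libraries held between 14888760 and 22412703 counts. Values are given as CPM, counts scaled to a common library size by TMM, with the libraries of a group in the order in which they are named above. Differences between the diets are log2 fold changes from edgeR's quasi-likelihood test, low cys minus normal cys, so positive values are higher on the low cystine diet. The exact permutation tests are two-sided over the 35 ways to divide the libraries, and the smallest p they can give is 0.0286. The samples were scrapings of the most distal part of the small intestine with its epithelium and lamina propria but no muscle layer, and in such bulk RNA fewer cells of a type and less RNA per cell cannot be told apart. Markers of the ileal epithelium were abundant in both groups. The 6 enterocyte markers summed to between 24948 and 42201 CPM in the normal cys and between 13231 and 25259 CPM in the low cys libraries, with 0 markers at 0, and their mean log2 CPM was lower in every low cys than in every normal cys mouse (difference -0.59, exact permutation p = 0.0571). The 6 distal ileum markers, led by Fabp6, summed to between 6423 and 11648 CPM and between 5205 and 8930 CPM (difference -0.25, exact permutation p = 0.4). The stroma markers (5 of 6 tested) summed to between 4.11 and 8.93 CPM in the normal cys and between 11.8 and 18.6 CPM in the low cys libraries, and their mean log2 CPM was higher in every low cys mouse (difference 1.20, exact permutation p = 0.0571). The 4 endothelial markers did likewise (difference 0.84, exact permutation p = 0.0571), and the part of these differences in the levels described below was not tested. The 5 smooth muscle markers summed to between 2.01 and 10.9 CPM in the normal cys and between 5.43 and 35.7 CPM in the low cys libraries. Their mean log2 CPM differed by 1.37 (exact permutation p = 0.2) with overlap between the groups, and its part in the levels below was not tested either. Of the 6 pancreatic acinar markers, Cela2a and Pnlip had 0 counts.

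None of the 9 genes passed the test between the diets. An adjusted p under 0.05 was reached by 0 of 9, as by 0% of all genes tested. An unadjusted p under 0.05 was also reached by 0 of 9, beside 5.49% of all genes tested, and in 0 of 9 were the groups free of overlap, beside 6.83% of all genes tested. The estimate was positive in 7 of 9 (Phgdh, Psat1, Shmt1, Shmt2, Mthfd1, Mthfd2 and Mtr), beside 51.2% of all genes tested, and negative in Psph and Mthfd1l. With library size scaling alone, which moved the median of all genes to 0.15, it was positive in 9 of 9, beside 71.8% of all genes. The median log2 fold change of the 9 was 0.52, and that of all genes tested was 0.0072. The 95% interval included 0 for each of the 9 genes, and at its widest, in Psat1, it ran from a 0.622-fold to a 3.33-fold level on the low cystine diet. The count at an unadjusted p under 0.05 depended on single mice, as did that of all genes. Without X17SI4 it was 2 (Shmt1 and Mthfd1), beside 1763 of the 14786 genes tested in that fit. Without X26SI4 it was 2 (Shmt1 and Mthfd2), beside 958 of the 15208 genes tested in that fit. The adjusted p-values of these members were 0.381 and above.

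**Figure D1:**
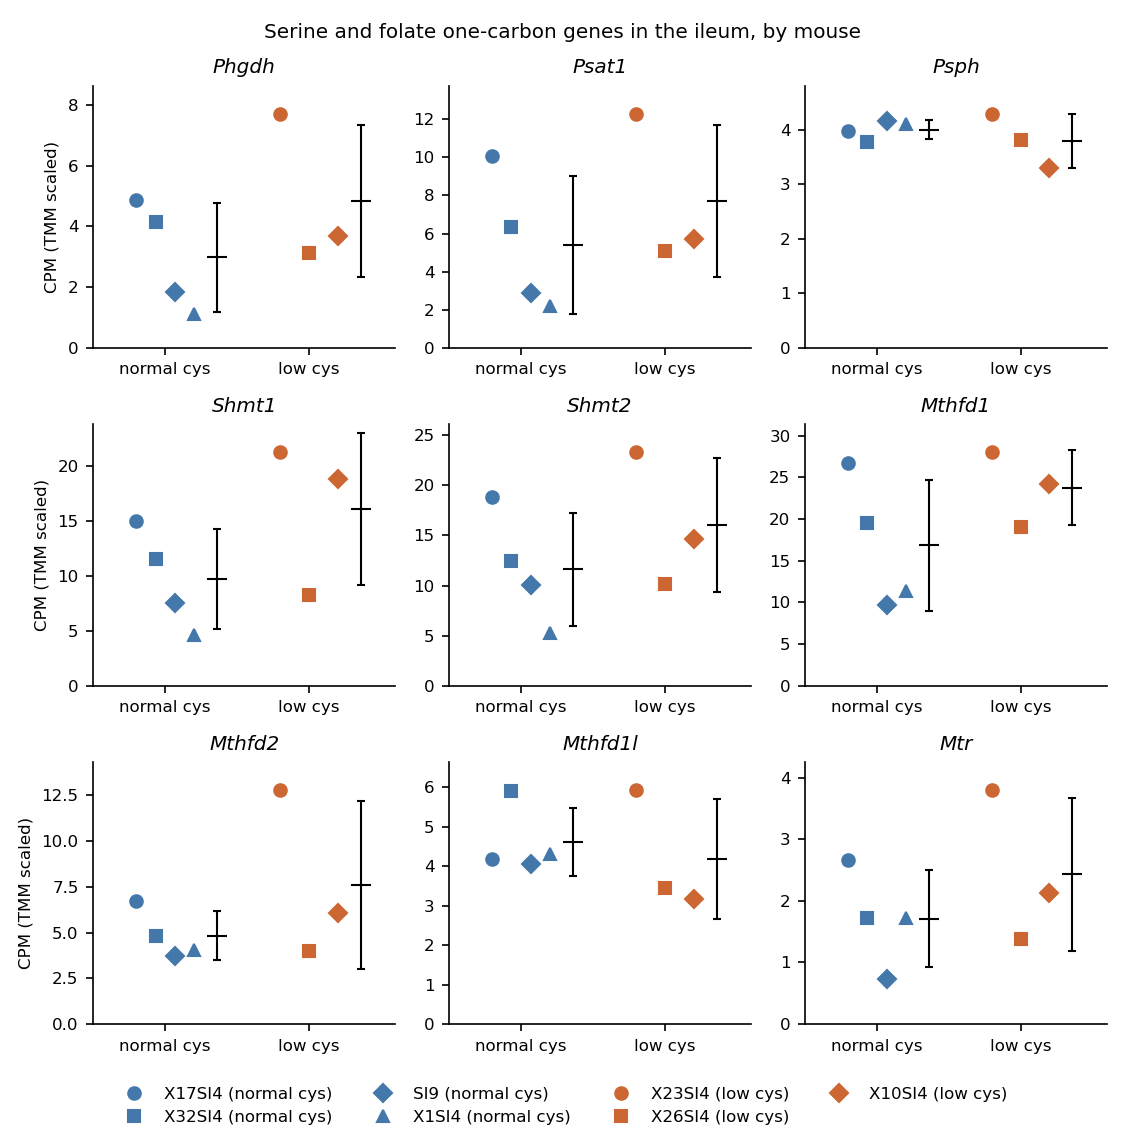
Level of each gene in CPM (vertical axes, starting at 0) in the 4 normal cys libraries (blue) and the 3 low cys libraries (orange), one symbol per mouse, with the mean and SD of each group in black. The groups overlap in every panel, and the orange circle (X23SI4) is the highest point in all 9.

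A single mouse on the low cystine diet stood above the rest. Library X23SI4 had the highest CPM of the 7 libraries in 9 of 9 genes, whereas 18% of all genes tested were highest in that library. The levels of the 9 genes summed to 119 CPM in X23SI4, between 38.696 (X1SI4) and 93.1 CPM (X17SI4) in the normal cys libraries, and to 58.2 and 81.8 CPM in the other low cys libraries, X26SI4 and X10SI4. The lowest library was X1SI4 in 4 genes, SI9 in 3 and X10SI4 in 2 (Psph and Mthfd1l). Without X23SI4 the log2 fold changes of the 7 genes with a positive estimate fell to between 0.02 (Psat1) and 0.50 (Shmt1), and those of Psph and Mthfd1l were -0.16 and -0.47. The 7 estimates were also lower without SI9, between 0.27 (Mtr) and 0.63 (Shmt1). Without X1SI4 they were between 0.23 (Shmt2) and 0.59 (Mthfd2), lower than with all libraries except for Mtr (0.53). Leaving out X17SI4 or X26SI4 moved the 7 estimates the opposite way. Without X17SI4 the 7 estimates were between 0.80 (Shmt2) and 1.04 (Phgdh), with Psat1 at 1.02, and without X26SI4 they were between 0.66 (Mthfd1) and 1.07 (Shmt1), with Mthfd2 at 0.99.

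Phgdh, phosphoglycerate dehydrogenase, catalyses the first step of serine synthesis (chromosome 3 of GRCm38, from 98313170 to 98339990). It was at 4.86, 4.13, 1.84 and 1.10 CPM in the normal cys libraries and at 7.71, 3.12 and 3.67 CPM in the low cys libraries. The normal cys mice thus differed among themselves by 4.42-fold, and X32SI4 and X17SI4 lay above both X26SI4 and X10SI4. The means were 2.98 ± 1.80 (SD, n = 4) and 4.84 ± 2.51 CPM (SD, n = 3), the log2 fold change was 0.71 (SE 0.52), and the adjusted p was 0.798 (exact permutation p = 0.314). Of the 9 genes, Phgdh shares the most sequence with others. Of the 50-base stretches of its transcripts, the length of the reads, 47.8% also occur in transcripts of other genes, most often in Gm7901. That share was 1.25% in Shmt2, 0.739% in Psat1 and 0 in the other 6 genes. Its effect on the counts of Phgdh, which may be uncertain for this reason, was not tested. The row of Gm7901 itself held 1.16 CPM in the mean of the normal cys and 1.77 CPM in that of the low cys libraries.

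Psat1, phosphoserine aminotransferase, catalyses the second step (chromosome 19, from 15904678 to 15947337). It was at 10.1, 6.36, 2.89 and 2.20 CPM in the normal cys libraries and at 12.3, 5.06 and 5.74 CPM in the low cys libraries. The order of the 7 mice was the same as for Phgdh, with X23SI4 and X17SI4 on top and SI9 and X1SI4 at the bottom. Between the diets Psat1 had a log2 fold change of 0.53 (SE 0.53) with an adjusted p of 0.823 (exact permutation p = 0.486).

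Psph, phosphoserine phosphatase, completes the synthesis (chromosome 5, from 129765558 to 129787252). It was at 3.97, 3.77, 4.15 and 4.11 CPM in the normal cys libraries and at 4.29, 3.81 and 3.29 CPM in the low cys libraries. Its range was the narrowest of the 9, with a highest level 1.30-fold the lowest, compared with 7.02-fold for Phgdh. Psph had a log2 fold change of -0.07 (SE 0.21) with an adjusted p of 0.932, and the 95% interval ran from a 0.685-fold to a 1.32-fold level. With counts scaled to library size alone, its estimate was 0.08.

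Shmt1, the cytosolic serine hydroxymethyltransferase, is encoded on chromosome 11 from 60788104 to 60811718. Shmt1 was at 15, 11.6, 7.57 and 4.59 CPM in the normal cys libraries and at 21.3, 8.25 and 18.8 CPM in the low cys libraries. Of the low cys mice, X23SI4 and X10SI4 were above every normal cys mouse, while X26SI4 was below X17SI4 and X32SI4. The means were 9.68 ± 4.56 (SD, n = 4) and 16.1 ± 6.92 CPM (SD, n = 3). Its log2 fold change of 0.74 (SE 0.43) had the largest estimate of the 9, with an adjusted p of 0.794 and an exact permutation p of 0.171.

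Shmt2, the mitochondrial form, is encoded on chromosome 10 from 127517123 to 127522444. Shmt2 was at 18.8, 12.5, 10.04 and 5.26 CPM in the normal cys libraries and at 23.3, 10.1 and 14.7 CPM in the low cys libraries. X23SI4 alone was above all normal cys mice, and X26SI4 was about level with SI9. The log2 fold change was 0.47 (SE 0.41) with an adjusted p of 0.807 (exact permutation p = 0.371). Of the exon bases of Shmt1 and Shmt2, 4.74% and 1.3% overlap exons of Smcr8 and Ndufa4l2 on the opposite strand, and the strand setting of the counting is not given in the sources used here.

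Mthfd1, the cytosolic trifunctional enzyme that interconverts formate and the folate-bound carbon, is encoded on chromosome 12 from 76255232 to 76319820. Mthfd1 was at 26.8, 19.5, 9.73 and 11.4 CPM in the normal cys libraries and at 28.0, 19.0 and 24.2 CPM in the low cys libraries. The low cys mice all lay in the upper part of the range, but X17SI4 came close to X23SI4. The means were 16.8 ± 7.87 (SD, n = 4) and 23.7 ± 4.52 CPM (SD, n = 3), with a log2 fold change of 0.50 (SE 0.33) and an adjusted p of 0.794 (exact permutation p = 0.229).

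Mthfd2, the mitochondrial dehydrogenase and cyclohydrolase known from embryonic and dividing cells, is encoded on chromosome 6 from 83305691 to 83317606. Mthfd2 was at 6.74, 4.81, 3.73 and 4.06 CPM in the normal cys libraries and at 12.8, 4.00 and 6.06 CPM in the low cys libraries. X26SI4 and X10SI4 were within the range of the normal cys mice, and the low cys mean of 7.61 ± 4.59 CPM (SD, n = 3) against 4.84 ± 1.35 CPM (SD, n = 4) rested on X23SI4. The log2 fold change was 0.66 (SE 0.39) with all libraries, with an adjusted p of 0.794 (exact permutation p = 0.343), and 0.07 (SE 0.33) without X23SI4.

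Mthfd1l, the mitochondrial synthetase that releases formate to the cytosol, is encoded on chromosome 10 from 3973118 to 4167081. Mthfd1l was at 4.18, 5.90, 4.05 and 4.3 CPM in the normal cys libraries and at 5.92, 3.44 and 3.16 CPM in the low cys libraries. One mouse of each group, X32SI4 and X23SI4, was near 5.9 CPM, and the other low cys mice were the lowest of the 7. The log2 fold change was -0.13 (SE 0.28) with an adjusted p of 0.903 (exact permutation p = 0.629), and its sign was positive with library size scaling alone (0.02).

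Mtr, the cobalamin-dependent methionine synthase, is encoded on chromosome 13 from 12186542 to 12258113 and had the fewest counts of the 9, between 14 and 93 per library. It was at 2.66, 1.73, 0.736 and 1.72 CPM in the normal cys libraries and at 3.80, 1.37 and 2.13 CPM in the low cys libraries. SI9 was the lowest mouse and X23SI4 the highest, and the groups overlapped. The log2 fold change was 0.52 (SE 0.47) with an adjusted p of 0.809 (exact permutation p = 0.429).

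**Figure D2:**
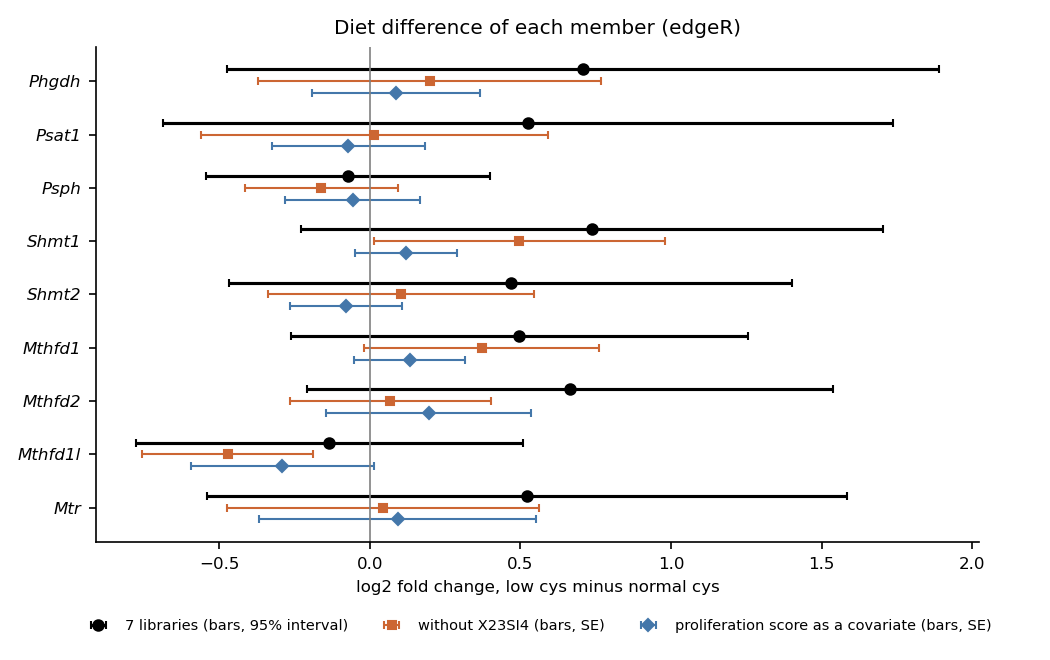
Log2 fold change of each gene, low cys minus normal cys, from edgeR with 7 libraries (black, bars are 95% intervals), without library X23SI4 (orange, bars are SE) and with the proliferation score as a covariate (blue, bars are SE). Every black interval includes 0, and both other fits move the 7 positive estimates toward 0.

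Per length of exon, the mean level over the 7 libraries was highest for Mthfd1 (5.96 CPM per kilobase) and Shmt2 (5.87), followed by Shmt1 (3.20), Mthfd2 (2.21), Phgdh (1.52), Psat1 (1.5), Mthfd1l (0.997), Psph (0.976) and Mtr (0.451). The levels of the neighbours Mthfd1 and Shmt2 could not be ordered, since Mthfd1 was above Shmt2 in 4 of 7 libraries. The same held for Phgdh and Psat1, with Phgdh above in 5 of 7, for Psat1 and Mthfd1l (5 of 7) and for Mthfd1l and Psph (2 of 7). The steps from Shmt2 to Shmt1, from Mthfd2 to Phgdh and from Psph to Mtr had the same direction in 7 of 7 libraries, and that from Shmt1 to Mthfd2 in 6 of 7.

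Ratios within a library do not depend on scaling. Shmt2 to Shmt1 and Mthfd1l to Mthfd1 set a mitochondrial against a cytosolic enzyme, Mthfd2 to Mthfd2l sets mitochondrial paralogs side by side, and Psat1 to Phgdh sets successive steps. The count ratio of Shmt2 to Shmt1 was 1.25, 1.08, 1.33 and 1.15 in the normal cys and 1.10, 1.23 and 0.781 in the low cys libraries. X10SI4 was the one mouse with more Shmt1 than Shmt2 counts, and the log2 ratio differed by -0.24 between the diets (exact permutation p = 0.229, adjusted over the 4 ratios 0.457), by -0.046 without X10SI4 and by -0.37 without X26SI4. The ratio of Mthfd1l to Mthfd1 was 0.157, 0.303, 0.418 and 0.379 in the normal cys and 0.212, 0.182 and 0.131 in the low cys libraries. All low cys mice were below 3 of the 4 normal cys mice, but X10SI4 alone was below X17SI4, for a difference of -0.78 in log2 (exact permutation p = 0.143, adjusted 0.457). The ratio of Mthfd2 to Mthfd2l was 3.85 in X23SI4 and between 0.956 and 2.29 in the other libraries, a difference of 0.08 in log2 (exact permutation p = 0.914) that became -0.44 without X23SI4, 0.57 without X26SI4, 0.20 without X17SI4, 0.03 without X32SI4 and -0.01 without X1SI4. Psat1 to Phgdh ranged from 1.54 to 2.07 with a difference of -0.16 in log2 (exact permutation p = 0.4, adjusted 0.533), which was -0.08 without X17SI4 and -0.10 without X1SI4.

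Across mice of both diets, most of the 9 genes were ordered like the proliferation markers of the tissue. A proliferation score, the mean log2 CPM of the 13 markers Mki67, Top2a, Pcna, Mcm2 to Mcm7, Ccnb1, Cdk1, Birc5 and Rrm2, was 4.78, 4.33, 3.61 and 3.04 in the normal cys and 4.97, 3.96 and 4.73 in the low cys libraries. X23SI4 and X17SI4 were on top and SI9 and X1SI4 at the bottom, as for Phgdh, Psat1 and Shmt2. Between the diets the score differed by 0.61 (exact permutation p = 0.314). Pearson's r with the score over the 7 libraries was at least 0.8 in 5 of 9 genes, beside 11.7% of the genes outside the score.

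The tightest relation was that of Shmt1 (r = 0.983, Spearman's rho = 0.964, exact permutation p = 0.000397 for r and 0.00278 for rho). It was followed by Shmt2 (r = 0.965, rho = 1, exact permutation p = 0.000198 and 0.000397), whose levels had exactly the order of the score. Phgdh (r = 0.955), Psat1 (r = 0.945) and Mthfd1 (r = 0.924) each had a rho of 0.964, with exact permutation p-values for r of 0.000595, 0.000794 and 0.00278. Mthfd2 had an r of 0.796 and a rho of 0.893 (exact permutation p = 0.0232 and 0.0123). After Benjamini-Hochberg adjustment over the 9 genes, these 6 had an adjusted p for r between 0.00179 and 0.0348 by the exact permutation test. The call of Mthfd2 was the least secure: its adjusted exact permutation p was 0.086 with the mean of each diet removed, and it was between 0.0521 and 0.121 without X17SI4, SI9, X23SI4, X26SI4 or X10SI4. The r of Mtr in turn was 0.97 without X1SI4 (adjusted exact permutation p = 0.00625).

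Mtr was in between, with an r of 0.703 and a rho of 0.893 (exact permutation p = 0.0778 and 0.0123, adjusted 0.1 and 0.0158). Mthfd1l (r = 0.196, rho = 0.25, exact permutation p = 0.672 and 0.595) and Psph (r = -0.28, rho = 0, exact permutation p = 0.558 and 1) had no detectable relation to the score. Serine synthesis thus held both kinds: Phgdh and Psat1 followed the score, and Psph stayed between 3.29 and 4.29 CPM throughout.

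SI9 and X1SI4 were the libraries farthest from the median score. Without them r was 0.967 in Shmt1, 0.946 in Shmt2, 0.949 in Mthfd1, 0.936 in Mtr, 0.878 in Mthfd2, 0.798 in Psat1 and 0.787 in Phgdh. With 5 libraries the exact permutation test has 120 pairings and cannot go below 0.00833 before adjustment over 9 genes. The smallest adjusted exact permutation p was 0.0563, so none of these relations passed without the pair. The r itself was higher without the pair in Mthfd1, Mthfd2 and Mtr and lower in Phgdh and Psat1. With the mean of each diet removed from both measures, r was between 0.743 (Mthfd2) and 0.98 (Shmt1) in the 6 genes. Stem cell markers (Lgr5, Olfm4, Ascl2 and Smoc2) and Paneth cell markers were also high in the same mice, with the highest mean log2 CPM in X10SI4, X23SI4 and X17SI4 and the lowest in SI9 and X1SI4. Enterocyte and distal ileum markers lay the other way, with their lowest mean log2 CPM in X23SI4 (10.8 and 8.77) and the highest in X1SI4 (12.1 and 9.83). Their r with the proliferation score was -0.81 and -0.92. For tuft, enteroendocrine and goblet cell markers r was -0.70, -0.46 and -0.12. The stem cell markers summed to between 11.1 and 50.004 CPM in the normal cys and between 24.4 and 57.5 CPM in the low cys libraries, with 0 markers at 0, and the 5 Paneth cell markers to between 596 and 3899 CPM and between 2391 and 4196 CPM. Their part in the levels of the 9 genes was not tested.

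**Figure D3:**
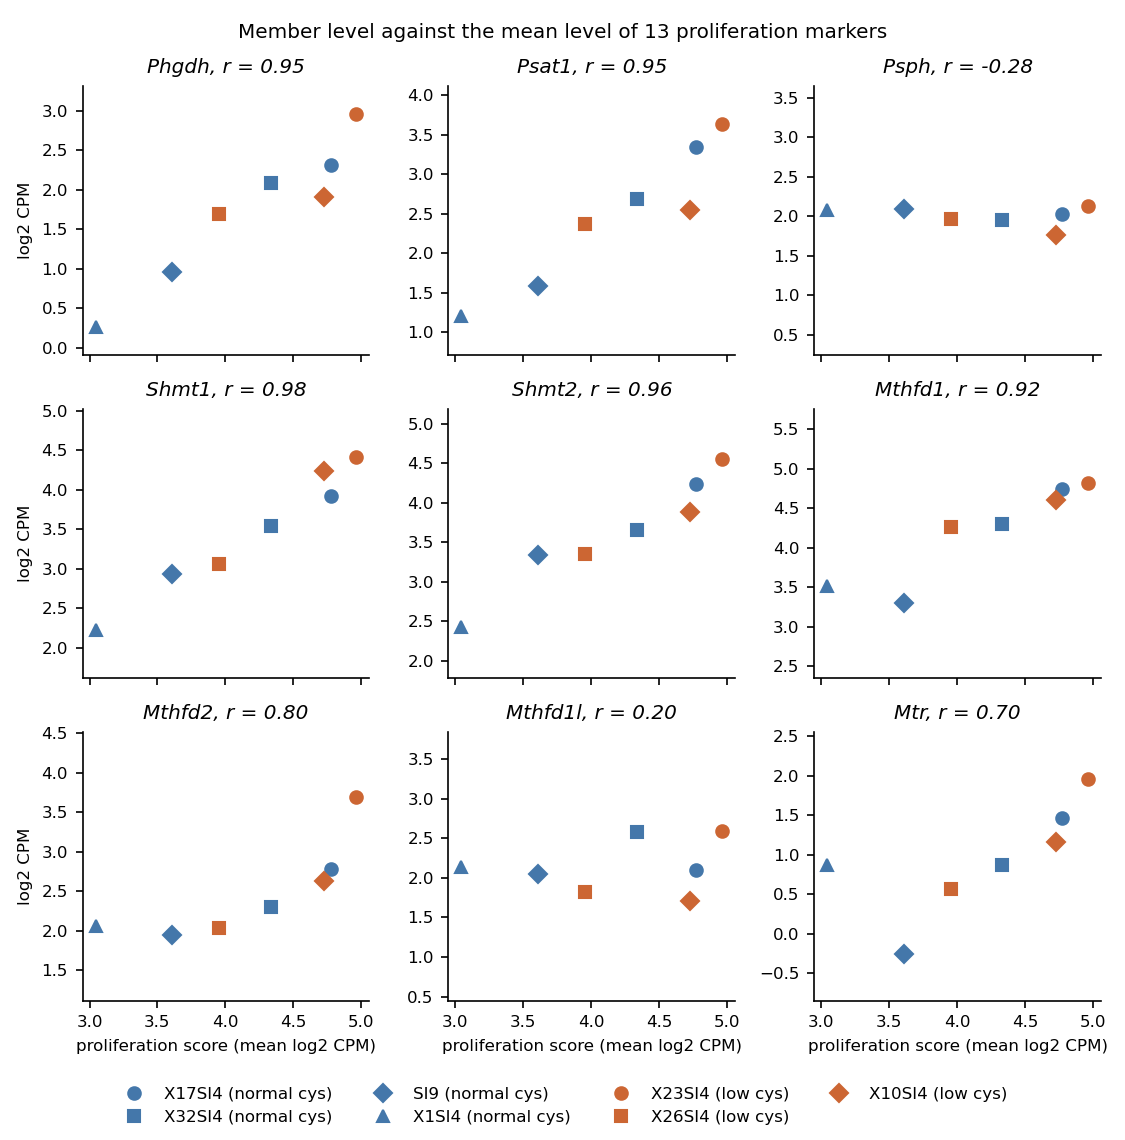
Log2 CPM of each gene (vertical axes, each spanning the same width) against the proliferation score of the library (horizontal axis, mean log2 CPM of 13 markers), with normal cys mice in blue and low cys mice in orange. Points of both colours rise along the same path for Phgdh, Psat1, Shmt1, Shmt2 and Mthfd1 and stay flat for Psph (r = -0.28).

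With the score as a covariate in edgeR, a fit added after the data were seen, the diet estimates came closer to 0 and were more precise for the genes that followed the score. Shmt1 went from 0.74 (SE 0.43) to 0.12 (SE 0.17), Phgdh from 0.71 (SE 0.52) to 0.09 (SE 0.28) and Mthfd1 from 0.50 (SE 0.33) to 0.13 (SE 0.18). Psat1 and Shmt2 changed sign, to -0.07 and -0.08. The estimates of Psph, Mthfd1l, Mthfd2 and Mtr in this fit were -0.06, -0.29, 0.19 and 0.09, and the adjusted p-values of all 9 lay between 0.969 and 0.994. The paper reports higher Ki67 mRNA and protein in the small intestine on the low cystine diet. A diet difference that runs together with the score is removed by this fit, so the fit is no test of one.

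Among themselves, the 9 genes gave 36 pairs, of which 16 had an r of at least 0.8, and 14 an adjusted p under 0.05 for r and 21 for rho by the exact permutation test. All 14 were pairs among Phgdh, Psat1, Shmt1, Shmt2, Mthfd1, Mthfd2 and Mtr, and none included Psph or Mthfd1l. The same shares over pairs of all genes tested were not computed, so the counts describe these 9 genes only. The highest r joined the successive enzymes Phgdh and Psat1 (r = 0.981, rho = 1, adjusted exact permutation p = 0.00714). Without X1SI4 and X23SI4, the libraries farthest from the median, their r was 0.971. The lowest r was that of Psph with Mthfd1 (r = -0.31, rho = -0.036, exact permutation p = 0.52).

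**Figure D4:**
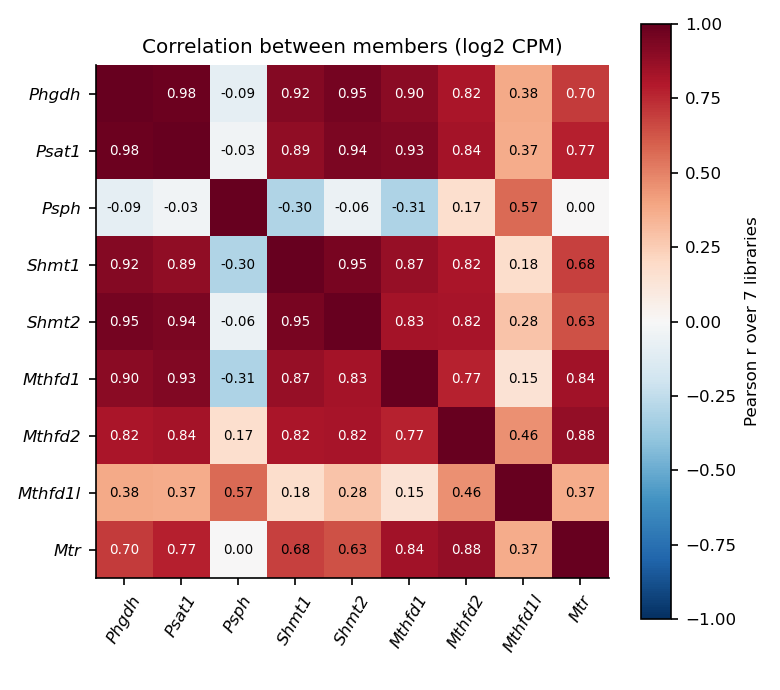
Pearson's r of log2 CPM over 7 libraries for every pair of the 9 genes, from blue (-1) through white (0) to red (1). Red fills the block of Phgdh, Psat1, Shmt1, Shmt2, Mthfd1, Mthfd2 and Mtr, and the rows of Psph and Mthfd1l are paler, with 0.57 between these genes as their highest value.

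Because several of the genes rose and fell together, the RefSeq promoter windows (250 bases before to 50 after a transcription start, GRCm38.p6) were searched on both strands for short motifs. All 9 genes had a window, and Psat1 had 2. The ATF4-type composite site TGATGNAA was in 0 of 9 genes, beside 3.97% of the 32851 windows of all genes, the E-box CACGTG in 0 of 9 (7.15%), and the AP-1 like TGANTCA in 0 of 9 (7.81%). Further motifs were chosen after the levels had been seen. Letters of the kind bound by E2F factors of the cell cycle (TTGGCGC and its variants TTCCCGC as well as TTGCCGC and also TTCGCGC) were in 4 of 9 genes, Phgdh, Psat1, Shmt1 and Mthfd1, beside 9.57% of all windows. CCAAT was in 7 of 9 genes, beside 37.4% of all windows, with Shmt2 and Mthfd1l as the exceptions. Counted by window, E2F-like letters were in 4 and CCAAT in 7 of the 10 windows of the 9 genes. E2F-like and CCAAT letters can share bases, but no matches of the pair overlapped in these windows. A match describes the sequence only, and the shares of motifs chosen after the levels had been seen are no test.

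The sequences of 3 genes that followed the score and of Psph, which did not, are shown here from 200 bases before to 20 after the start, 5′ to 3′ along the gene, with the E2F-like letters of either strand in capitals. For Psat1 the window that holds such letters is the one shown. Of the other genes whose r with the score passed, Shmt1 has such letters, and Shmt2 (r = 0.965) and Mthfd2 (r = 0.796) have none. Whether the letters go with the score was not tested.
Phgdh promoter, chr3:98339950-98340169 (- strand): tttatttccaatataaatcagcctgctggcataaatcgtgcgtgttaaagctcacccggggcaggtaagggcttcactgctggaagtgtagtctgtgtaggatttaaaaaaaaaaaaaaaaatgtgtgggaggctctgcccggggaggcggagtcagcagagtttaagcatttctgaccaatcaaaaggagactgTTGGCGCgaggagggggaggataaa
Psat1 promoter, chr19:15925040-15925259 (- strand): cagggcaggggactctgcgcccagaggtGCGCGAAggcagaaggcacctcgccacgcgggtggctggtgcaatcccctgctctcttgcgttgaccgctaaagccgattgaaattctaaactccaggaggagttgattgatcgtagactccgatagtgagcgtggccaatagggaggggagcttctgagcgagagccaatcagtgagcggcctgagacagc
Mthfd1 promoter, chr12:76255032-76255251 (+ strand): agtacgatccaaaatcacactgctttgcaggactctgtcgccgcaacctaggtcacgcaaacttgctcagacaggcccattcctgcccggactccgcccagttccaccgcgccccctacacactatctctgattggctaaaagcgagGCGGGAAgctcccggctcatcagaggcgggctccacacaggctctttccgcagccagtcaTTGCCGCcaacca
Psph promoter, chr5:129787234-129787453 (- strand): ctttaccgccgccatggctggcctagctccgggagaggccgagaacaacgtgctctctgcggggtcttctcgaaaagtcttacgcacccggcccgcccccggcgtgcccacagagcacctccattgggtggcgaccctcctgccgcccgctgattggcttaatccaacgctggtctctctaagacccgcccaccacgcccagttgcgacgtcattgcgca

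In Phgdh the capitals span the start itself, from position -5 to 2 where 1 is the first transcribed base. In Mthfd1 they lie from -53 to -47 and from 8 to 14, and in Psat1 from -172 to -166. Psph has none, and its CCAAT letters, in the reverse orientation, lie from -78 to -74 and from -48 to -44.

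Around the 9 genes, 70 other genes of the pathway were listed and 58 of them tested. None had an adjusted p under 0.05, and 4 had an unadjusted p under 0.05 (6.90%, beside the 5.49% of all genes). The 4 were Paics, Ggh, Mat2a and Trib3. A positive estimate was found in 36 of 58, beside 51.2% of all genes tested, and that share also belongs beside the lists below. In 6 of 58 (10.3%, beside the 6.83% of all genes) the diets did not overlap. An r of at least 0.8 with the proliferation score was found in 13 of 58, beside the 11.7% of all genes.

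Purine synthesis, which takes one-carbon units from folate, gave a similar picture. All 7 listed genes (Prps1, Ppat, Gart, Pfas, Paics, Adsl and Atic) had a positive estimate, beside 51.2% of all genes, with a median log2 fold change of 0.49. An r of at least 0.8 with the score was found in 6 of 7, beside 11.7% of the genes outside the score. In X23SI4, 7 of 7 were at their highest, beside 18% of all genes. Paics, the enzyme of the middle steps, was at 11.2, 8.22, 6.10 and 4.49 CPM in the normal cys and at 16.3, 10.2 and 13.5 CPM in the low cys libraries. X26SI4 was below X17SI4, so the groups overlapped, and the log2 fold change was 0.83 (SE 0.30, adjusted p 0.794, exact permutation p = 0.0857). Atic, the most abundant of the list, had 16.6 ± 9.71 (SD, n = 4) and 24.7 ± 6.93 CPM (SD, n = 3) and an adjusted p of 0.798.

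Of the 7 genes of folate uptake and retention, 6 were tested and 3 had a positive estimate. Ggh, the hydrolase that trims the polyglutamate tail of folates, was at 1.62, 1.45, 2.31 and 2.15 CPM in the normal cys and at 3.18, 2.75 and 2.97 CPM in the low cys libraries. The low cys mice were all above the normal cys mice, with a log2 fold change of 0.66 (SE 0.27), an exact permutation p of 0.0286 and an adjusted p of 0.794. Slc46a1, the proton-coupled folate transporter of the gut and the most abundant of the list, had 12.1 ± 1.81 (SD, n = 4) and 9.64 ± 1.59 CPM (SD, n = 3) with an adjusted p of 0.794.

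Of the 9 other folate enzymes, 7 were tested and 3 had a positive estimate. Aldh1l1, which oxidises the formyl group of folate to carbon dioxide, was the most abundant, and its means were 156 ± 19.8 CPM (SD, n = 4) with normal and 133 ± 19.8 CPM (SD, n = 3) with low cystine and gave an adjusted p of 0.794. Of the 11 methionine cycle genes, 8 were tested and 5 had a positive estimate. Mat2a, the methionine adenosyltransferase of tissues outside the liver, was at 90.1, 103, 82.6 and 92.2 CPM in the normal cys and at 123, 116 and 109 CPM in the low cys libraries. All low cys mice were above all normal cys mice, with a log2 fold change of 0.34 (SE 0.12), an exact permutation p of 0.0571 and an adjusted p of 0.794. Ahcyl2, the most abundant of that list, had 325 ± 79.4 (SD, n = 4) and 283 ± 34.6 CPM (SD, n = 3) with an adjusted p of 0.821.

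Of the genes that carry or use serine and glycine, 4 of 6 tested transporters, 3 of 6 tested users and 3 of 3 tested glycine cleavage genes had a positive estimate. Slc7a10 of the transporters, Cbs, Sds, Agxt and Sptlc3 of the users and Gldc of glycine cleavage did not pass the filter on low counts. The most abundant tested genes of these lists did not pass the test between the diets either. The log2 fold change was 0.0029 (SE 0.14, adjusted p 0.997) for Sfxn1, the mitochondrial serine carrier, -0.06 (SE 0.21, adjusted p 0.944) for Sptlc2, which condenses serine in sphingolipid synthesis, and 0.12 (SE 0.13, adjusted p 0.832) for Dld, a subunit of the glycine cleavage system.

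Phgdh, Psat1, Shmt2 and Mthfd2 are also known targets of ATF4, the transcription factor of the amino acid response. Of ATF4 and 10 of its other targets, 11 were tested, 7 had a positive estimate and the median log2 fold change was 0.28. Atf4 itself, the most abundant, had 229 ± 30.0 (SD, n = 4) and 199 ± 14.6 CPM (SD, n = 3) and an adjusted p of 0.794. Trib3, a pseudokinase that ATF4 induces, was at 9.82, 18.8, 19.6 and 16.9 CPM in the normal cys and at 8.20, 10.1 and 9.80 CPM in the low cys libraries. X17SI4 was at the level of the low cys mice, with a log2 fold change of -0.80 (SE 0.24, adjusted p 0.794, exact permutation p = 0.0857). In X23SI4, 6 of the 11 were at their highest, beside 18% of all genes tested. Among them were Chac1 and Slc7a5, which are named after their values were seen. Chac1 was at 12.9 CPM in X23SI4 and between 1.19 and 2.29 CPM in the other 6 libraries, and Slc7a5 was at 10.2 CPM in X23SI4 and between 2 and 4.77 CPM elsewhere. Trib3 had its lowest value of the 7 libraries in X23SI4. Ddit3, also named after its values were seen, was at 12.8 CPM in X23SI4 and between 10.8 and 26.8 CPM in the normal cys libraries. Its log2 fold change was -0.60 (SE 0.28, adjusted p 0.794).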

How the data were processed

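RNA-seq of 7 ileal scrapings was used, 4 normal cys and 3 low cys, grouped by their sample labels. The authors trimmed reads with TrimGalore (v0.6.5), removed ribosomal reads, aligned to GRCm38 with STAR and counted reads on exons with featureCounts and an Ensembl annotation. The deposited values are raw counts per gene and were not normalized. The strand setting and the handling of reads with several matches are not given in the sources used here, nor is a batch. The authors purified RNA with either of 2 column kits, and which kit served which library is not given in the sources used here.

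Counts were filtered with filterByExpr (minimum count 10, minimum total 15), scaled by TMM, and compared between the diets in edgeR (version 4.0.16, R 4.3.3) by its quasi-likelihood test in the robust form, without covariates, and Benjamini-Hochberg adjustment covered the 14869 genes tested. Intervals come from this fit. Log2 CPM used a prior count of 2 and ratios added 0.5 counts. DESeq2 (version 1.42.0), limma-voom (version 3.58.1), other scalings and filters and leaving out each library were the alternatives. Single values and correlations were tested by exact permutation (35 splits, 5040 pairings). The edgeR step was tested on simulated data. The 9 genes, the pathway and marker lists and the tests were chosen with earlier results of these data known. Pathway genes whose levels or estimates are given besides the 9 are those with an unadjusted p under 0.05 and the most abundant of each list. Chac1, Slc7a5, Ddit3, Eno1, Pgk1, Pgam1 and Mthfd2l were added after their values were seen. The mice were separate animals. Lengths and positions are those of the count table, and shared 50-base stretches were counted in GENCODE M21 transcripts.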

Additional observations from a re-analysis of the deposited data

Results flagged for a closer look

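Of 14 values tested in the 4 normal cys mice (the 9 genes, the 4 ratios and the proliferation score), 1 held a mouse far from the others, where chance alone gives about 0.7. Mthfd1l had a log2 CPM of 2.59 in X32SI4 and between 2.05 and 2.14 in the other normal cys mice, so that the gap made up 0.841 of the range. The low cys group of 3 mice is too small for this test.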

How the results depend on the processing

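No paired analysis was possible because the labels carry no replicate numbers that the diets share. Genes with an adjusted p under 0.05 numbered 16 with DESeq2 and between 0 and 1 when each library was left out. Genes with an unadjusted p under 0.05 then numbered between 258 of 15076 (without X23SI4) and 1763 of 14786 (without X17SI4). Members numbered between 0 and 2 (Shmt1 and Mthfd1 without X17SI4, Shmt1 and Mthfd2 without X26SI4, beside 958 of 15208 genes there). Other pathway genes numbered between 1 (without X23SI4) and 10 (without X17SI4). Those other pathway genes numbered 7 with DESeq2 and 7 with limma-voom. The estimate changed sign for Psat1 (-0.0717) and Shmt2 (-0.0793) with the proliferation score as a covariate, for Psph and Mthfd1l with library size alone (0.0791 and 0.0153), and for both with left-out libraries, over which they ranged from -0.162 to 0.0167 (without X10SI4) and from -0.472 to 0.0263 (without X32SI4, and positive too without X26SI4 or X10SI4). Library size alone moved the median log2 fold change of all genes to 0.15, and relative to it Psph and Mthfd1l remained lower. Left-out libraries moved the Mthfd2 to Mthfd2l difference from -0.44 to 0.57, including -0.01 without X1SI4. The r of Psph was 0.218 without SI9 and X1SI4 and between -0.653 and 0.00455 with 1 library left out, and that of Mthfd1l was between -0.114 (without X23SI4) and 0.490. The causes were not tested. Positive estimates numbered between 5 (covariate) and 9 (library size alone, or without X10SI4) of the 9 genes. With 3 and 4 mice the intervals span up to several-fold differences, and Mtr and Phgdh, at 14 and 23 counts in their lowest libraries, also carry sizeable counting error.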

Other observations

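Of the 4 listed glycolytic genes on either side of 3-phosphoglycerate, from which serine is made, 1 had a positive estimate (Pgam1) and the others a negative one. They were chosen for description after their values were seen. Gapdh was at 667.5 ± 38.685 CPM (SD, n = 4) with normal and 544 ± 52.2 CPM (SD, n = 3) with low cystine, and all low cys mice lay below all normal cys mice (exact permutation p = 0.0286). The same held for Eno1, at 434 ± 45.8 (SD, n = 4) and 351 ± 20.9 CPM (SD, n = 3) (exact permutation p = 0.0286), and for Pgk1, at 224 ± 9.985 (SD, n = 4) and 195 ± 12.1 CPM (SD, n = 3) (exact permutation p = 0.0571). Pgam1 was at 139 ± 24.8 and 149.8 ± 2.42 CPM and overlapped. The edgeR adjusted p was 0.794 for Gapdh, Eno1 and Pgk1, so none passed the correction over all genes. Groups without overlap were found in 6.83% of all genes tested.

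Mthfd2l, the paralog of Mthfd2, was also named after its values were seen. It was higher in every low cys than in every normal cys mouse, as groups without overlap were found in 6.83% of all genes tested. The levels were 2.65 ± 0.447 CPM (SD, n = 4) with normal and 3.59 ± 0.514 CPM (SD, n = 3) with low cystine (exact permutation p = 0.0286, edgeR adjusted p = 0.794). The highest mouse for Mthfd2l was X26SI4, whereas that for Mthfd2 was X23SI4.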
